A study of Mus musculus with 10 samples.

Results

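The genes described are the 50 protein-coding genes of the mouse table whose names begin with Wnt, Fzd, Sfrp, Dkk or Rspo followed by a number, together with Lrp5, Lrp6, Frzb, Wif1, Axin2, Lef1, Tcf7, Ror1 and Ror2, of 35275 genes in all. They were taken by a rule on names, which was chosen with earlier results of these data known. They comprise 19 Wnt ligands, 14 receptors, 10 secreted inhibitors, 4 R-spondins, and 3 genes inside the cell, namely the feedback gene Axin2 and the transcription factors Lef1 and Tcf7. RNA was sequenced from C2C12 cells, an established mouse myoblast line, in 5 libraries made immediately before differentiation and 5 made on day 6 of differentiation. Before differentiation the cells grew in DMEM with 10% fetal bovine serum, and they were differentiated in DMEM with 2% horse serum, so the change of medium and the 6 days are part of every comparison below. All libraries come from 1 cell line, the labels do not name separate cultures, and the p-values therefore measure the spread between these libraries. Levels are in CPM, the counts of a gene for each 1000000 counts of its library after TMM scaling, differences are log2 fold changes of day 6 over before differentiation, and p-values are from edgeR's quasi-likelihood test, adjusted over all 13085 genes tested.

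Wnt proteins are secreted lipid-modified ligands that bind Frizzled receptors on neighbouring cells. With the co-receptors Lrp5 and Lrp6 they stabilize beta-catenin, which enters the nucleus and drives target genes together with Tcf7 and Lef1, whereas with receptors such as Ror1 and Ror2 they act on cell polarity and calcium without beta-catenin. Secreted proteins of the Sfrp, Dkk and Wif families are known mainly for restraining these signals, and R-spondins strengthen them. In developing muscle and in muscle stem cells Wnt signals act on both the commitment and the fusion of myoblasts.

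Libraries held 16288532 to 21622527 counts before differentiation and 15367909 to 20509280 on day 6. The summed level of 6 myotube markers was 21.1 to 23.7 CPM before differentiation and 8825 to 13130 CPM on day 6, with all 6 higher. That of 7 myoblast markers was 1903 to 2055 and 4929 to 5825 CPM. Of these, 4 were higher, Myod1, Des, Itga7 and Ncam1, and 2 lower, Myf5 and Pax7, while Cdh15 was not called. Adipocyte and chondrocyte markers summed to at most 0.242 CPM in any library. Macrophage markers summed to 0.829 to 3.07 CPM before differentiation and 1.74 to 2.77 CPM on day 6. Among them Cd68 had 173 and 104 counts and was not called. Under the filter, Itgam had 0 and 66 counts, Csf1r 16 and 17, and Ptprc 8 and 2. Endothelial markers summed to 0.118 to 0.915 CPM before differentiation and 2.13 to 2.87 CPM on day 6, with Vwf, the 1 tested, called higher. Vwf had 5 and 142 counts and passed the filter through day 6 alone. Under the filter, Tek went from 14 to 69 counts and Pecam1 from 1 to 4, while Kdr went from 23 to 0 and Cdh5 from 7 to 0. Epithelial markers summed to 0.323 to 1.13 and 2.56 to 4.80 CPM, with Cdh1, the 1 tested, called higher. Cdh1 had 17 and 291 counts and also passed through day 6 alone. Krt8 went from 47 to 8 counts and Krt18 from 3 to 0, both under the filter, and Epcam had none. Osteoblast markers, mostly Runx2, summed to 83.9 to 94.6 and 38.5 to 41.3 CPM, and neural markers to 272 to 318 and 10.5 to 17.2 CPM with Tubb3 alone detected of the 4. Whether cells of other types had a part in the results below was not tested. Within day 6, replicates 1 and 2 stood apart from replicates 3, 4 and 5 on a first principal component that held 49.5% of the variance. Of the 28 Wnt genes tested, 7 were higher in both of these replicates than in the other three (25.0%) and 8 were lower in both (28.6%), beside 22.7% and 22.2% of all genes tested. In bulk RNA, fewer cells that express a gene cannot be told apart from less of its RNA per cell.

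Of the 50 genes, 28 passed the filter on low counts and were tested, 17 more had at most 58 counts in a condition, and 5 had no count in any library (Wnt2, Wnt3a, Wnt9b, Fzd10 and Rspo4). Of the 28, the test put 19 higher on day 6 (67.9%) and 5 lower (17.9%), where 40.1% and 39.7% of all genes tested were. The total of 24 called (85.7%) stands beside 79.8% of all genes. By more than 1 log2, 11 were higher and 3 lower, beside 18.1% and 14.7% of all genes (32.8% in either direction). The median log2 fold change of the 28 was 0.84, beside 0.01 over all genes tested. In 15 genes every library of day 6 was above every library before differentiation and in 4 every one was below, where 34.3% and 34.8% of all genes showed these patterns and 69.1% showed either. The 4 genes that were not called were Wnt10b, Wnt4, Lrp5 and Fzd3.

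**Figure D1:**
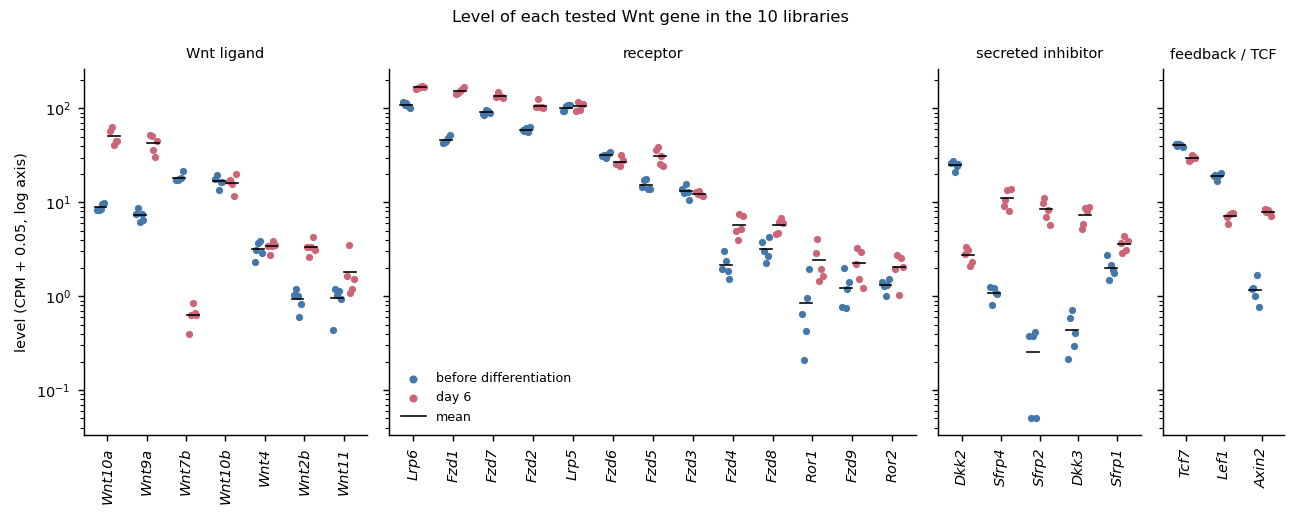
Level in CPM plus 0.05 on a log axis of the 28 tested genes in each library, by role, with blue points for the 5 libraries before differentiation, red points for the 5 of day 6 and a bar at each mean. The day 6 libraries of Wnt7b lie at 0.346 to 0.791 CPM, far below the other libraries, while those of Wnt10a and Wnt9a lie above 30 CPM.

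Among the ligands, Wnt10a and Wnt9a rose and Wnt7b fell to under 1 CPM. Of 19 ligands, 7 were tested, 4 were higher and 1 was lower, where 40.1% of all genes tested were higher and 39.7% lower. Wnt10a, a ligand of the beta-catenin branch known from teeth and skin, lies on chromosome 1 from 74791516 to 74804179 on the plus strand of mm10. Its level was 8.16, 8.23, 8.45, 9.49 and 9.71 CPM in replicates 1 to 5 before differentiation and 58, 63.6, 41.2, 44.6 and 44.7 CPM in replicates 1 to 5 of day 6. The conditions did not overlap, and day 6 replicates 1 and 2 were the highest of all. The mean went from 8.81 ± 0.733 to 50.4 ± 9.79 CPM (SD, n = 5), 5.74-fold higher (log2 fold change 2.52 ± 0.12 SE, adjusted p = 1.15e-11).

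Wnt9a, known from the forming joints of the skeleton, lies on chromosome 11 from 59306928 to 59333552 on the plus strand. Its level was 7.5, 8.56, 6.18, 7.49 and 6.45 CPM before differentiation and 52.1, 51.2, 36.2, 30.5 and 44.8 CPM on day 6. Every day 6 library was above every earlier one, with replicates 1 and 2 again above replicates 3, 4 and 5. It was 5.95-fold higher on day 6 (log2 fold change 2.57 ± 0.16 SE, adjusted p = 1.74e-09).

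Wnt9a has Wnt3a as its neighbour, and 16.175 kb separate them on opposite strands. Wnt3a, known from the embryo's tail bud and nervous system, had no count in any library, while Wnt9a had 660 counts before differentiation and 3804 on day 6. The 250 bases before the start of each are shown because of this contrast, from RefSeq on GRCm38.p6 and in the direction of the gene, chr11:59306680-59306929 on the plus strand for Wnt9a and chr11:59290752-59291001 on the minus strand for Wnt3a. Capitals mark E-box sequences of the kind that Myod1 and its relatives bind. The search was for CAGCTG and, as a separate motif of this kind, for CAGGTG, on both strands.
Wnt9a: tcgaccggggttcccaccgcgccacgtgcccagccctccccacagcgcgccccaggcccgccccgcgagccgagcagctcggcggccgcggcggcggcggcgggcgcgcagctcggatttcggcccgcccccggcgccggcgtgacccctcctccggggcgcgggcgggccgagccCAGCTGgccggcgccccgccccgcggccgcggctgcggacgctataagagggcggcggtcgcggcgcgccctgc
Wnt3a: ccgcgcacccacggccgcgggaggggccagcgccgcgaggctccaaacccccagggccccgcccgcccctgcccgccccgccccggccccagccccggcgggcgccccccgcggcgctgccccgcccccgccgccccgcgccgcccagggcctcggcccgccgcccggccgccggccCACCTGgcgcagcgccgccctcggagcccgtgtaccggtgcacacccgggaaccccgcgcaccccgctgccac
The Wnt9a stretch held CAGCTG 74 bases before the start, and the Wnt3a stretch held CAGGTG, read on the other strand, 73 bases before its start. CAGCTG was found in 13% and CAGGTG in 17.2% of 32851 promoters of the same length in the mouse. Of 34 Wnt genes with an entry, 4 held CAGCTG and 9 held CAGGTG.

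The pairs of Wnt10a and Wnt10b with their neighbours also differed within themselves. Wnt6 and Wnt10a lie 6.193 kb apart on chromosome 1 and had 19 and 802 counts before differentiation and 57 and 4466 on day 6. Wnt10b and Wnt1 lie 11.706 kb apart on chromosome 15, with 1515 and 6 counts before differentiation and 1412 and 4 on day 6. Wnt9b and Wnt3, 24.328 kb apart on chromosome 11, had no count and, on day 6 alone, 4 counts, too few to show a difference. In the pairs of Wnt10a and Wnt10b, as in that of Wnt9a, 1 ligand carried nearly all of the counts in both conditions.

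Wnt7b, known from the lung and kidney, was the 1 ligand that fell and lies on chromosome 15 from 85535439 to 85581821 on the minus strand. Its level was 17, 17.1, 17.7, 18 and 21.7 CPM before differentiation and 0.346, 0.587, 0.791, 0.61 and 0.58 CPM on day 6, or 1666 and 50 counts in all. The conditions were far apart in all 10 libraries. It was 31.4-fold lower on day 6 (log2 fold change -4.97 ± 0.16 SE, adjusted p = 6.29e-15). The noncoding gene AU022754, which overlaps it on the opposite strand, had 7 and 2 counts.

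Wnt10b, a ligand that keeps precursor cells from becoming fat cells, was detected at a like level in both conditions. It stood at 17.7, 19.3, 13.5, 16.4 and 16.2 CPM before differentiation and 16.7, 17.1, 15.6, 11.6 and 19.8 CPM on day 6. The libraries overlapped over most of their range, and no difference passed the test (log2 fold change -0.04 ± 0.12 SE, adjusted p = 0.77). Wnt4, known from the kidney and the female reproductive tract, also overlapped. Its level was 2.24, 3.07, 3.68, 3.81 and 2.84 CPM before differentiation and 3.36, 2.67, 3.41, 3.78 and 3.48 CPM on day 6 (log2 fold change 0.09 ± 0.18 SE, adjusted p = 0.657).

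Wnt2b and Wnt11 were higher on day 6 at low levels. Wnt2b, a close relative of Wnt2 known from the eye and lung, stood at 0.986, 1.13, 0.944, 0.544 and 0.769 CPM before differentiation and 3.26, 2.56, 3.29, 4.21 and 3.03 CPM on day 6. No library overlapped (log2 fold change 1.88 ± 0.24 SE, adjusted p = 1.08e-06). Wnt11, known for moving cells through the branch without beta-catenin, stood at 0.383, 1.13, 0.991, 1.09 and 0.888 CPM before differentiation and 1.58, 3.47, 1.03, 1.16 and 1.48 CPM on day 6. Replicate 2 of day 6 was above every other library, and replicate 3 of day 6 lay within the earlier range. Its call (log2 fold change 0.97 ± 0.36 SE, adjusted p = 0.0207) was lost without that replicate 2 (log2 fold change 0.58, adjusted p = 0.116) or without replicate 1 before differentiation (adjusted p = 0.0586). Without both replicates 1 and 2 of day 6 the log2 fold change was 0.46 (adjusted p = 0.263).

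The other 12 ligands were under the filter. Wnt6, which acts on the surface layer of the somites, had 4, 0, 7, 2 and 6 counts in replicates 1 to 5 before differentiation and 13, 9, 10, 20 and 5 on day 6. Wnt5b, which acts mainly outside the beta-catenin branch, had 0, 6, 7, 6 and 4 counts before differentiation and 14, 19, 11, 5 and 9 on day 6. Both overlapped between conditions, and with no filter edgeR's test put them higher on day 6 (adjusted p = 0.013 and 0.029). Their ratios of summed counts, scaled, were 3.14 (95% counting interval 1.84 to 5.59) and 2.64 (1.6 to 4.49). Wnt5b shares 2963 bases with Fbxl14 on the opposite strand, which had 5327 and 3076 counts. Without a stated strand setting it is not known whether reads from the shared bases were kept apart, mixed or left out. Wnt5a, the best known ligand of Ror receptors, had 8 counts before differentiation and 9 on day 6, and Wnt1, which patterns the midbrain, had 6 and 4. Wnt3, Wnt7a, Wnt8a, Wnt8b and Wnt16 had at most 4 counts in a condition.

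Per length, the ligand RNA changed in amount and in make-up. Summed over the 19 ligands, the deposited FPKM (counts per kilobase of gene length and per 1000000 counts) was 20.1 ± 1.35 before differentiation and 43.3 ± 6.91 on day 6 (SD, n = 5), with no overlap between libraries. Before differentiation Wnt10b held 37.4% ± 3.58 of this sum, Wnt7b 26.2% ± 2.5, Wnt10a 17.9% ± 1.38 and Wnt9a 10.9% ± 1.17. On day 6 Wnt10a held 46.7% ± 3.49, Wnt9a 29.4% ± 2.36, Wnt10b 16.7% ± 2.75 and Wnt7b 0.4% ± 0.155. Thus Wnt10b led before differentiation and Wnt10a on day 6, and in both conditions 3 ligands held most of the sum.

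**Figure D2:**
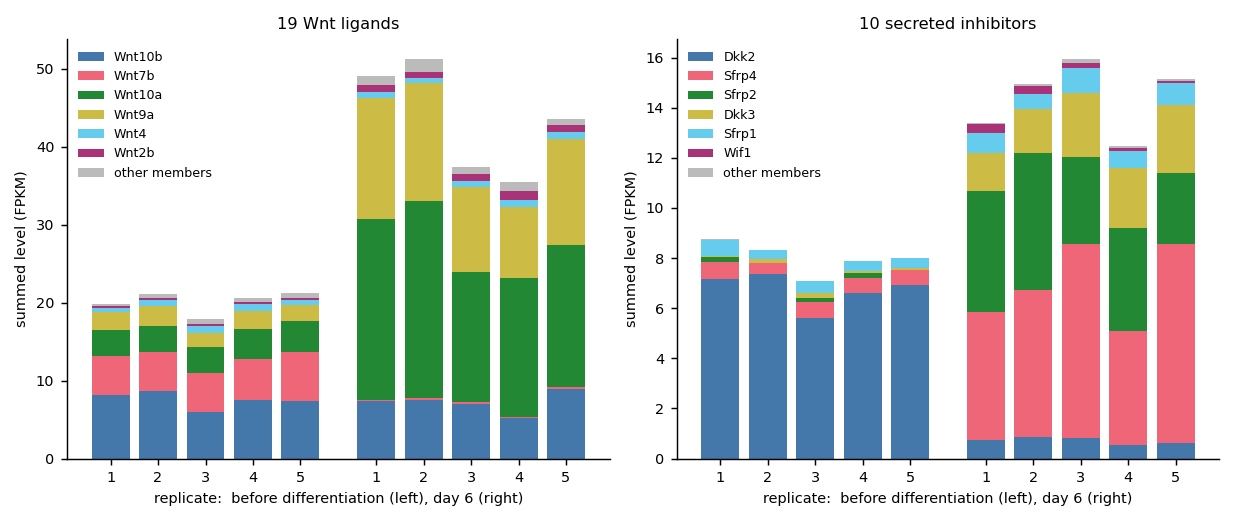
Stacked FPKM per library of the 19 Wnt ligands (left) and the 10 secreted inhibitors (right), with libraries before differentiation to the left of those of day 6 in each panel and colours for the leading genes. The ligand sums run from 17.9 to 21.2 before differentiation and from 35.5 to 51.2 on day 6, and Dkk2 makes up most of the inhibitor bars before differentiation alone.

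Among the receptors, most Frizzled genes rose and none fell by more than 1 log2. Of 10 Frizzled genes, 9 were tested, 7 were higher, Fzd6 was lower and Fzd3 was not called. Over all genes tested, 40.1% were higher and 39.7% lower. Fzd1, which acts with Fzd2 in closing the palate and heart septum, showed the largest rise. Its level was 43, 44, 45.3, 47.9 and 52 CPM before differentiation and 143, 145, 152, 160.1 and 168 CPM on day 6. No library overlapped, and it was 3.31-fold higher (log2 fold change 1.73 ± 0.06 SE, adjusted p = 2.03e-14). Fzd2 stood at 59.1, 57.2, 61.2, 56.7 and 63 CPM before differentiation and 104, 127, 102, 102 and 100.1 CPM on day 6. Replicate 2 of day 6 was above the other four, which lay close together, and none overlapped with the earlier libraries (log2 fold change 0.85 ± 0.06 SE, adjusted p = 8.86e-10). Fzd7, the receptor for Wnt7a on muscle stem cells, stood at 86.6, 85.4, 96.1, 94.2 and 89.6 CPM before differentiation and 132, 149.6, 137, 133 and 131 CPM on day 6. It rose less than Fzd1 and Fzd2 but also without overlap (log2 fold change 0.59 ± 0.05 SE, adjusted p = 8.48e-09).

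Fzd5, known from the eye and the gut, stood at 14.5, 17.1, 17.5, 13.7 and 13.9 CPM before differentiation and 36.3, 38.6, 25.3, 30.8 and 24.5 CPM on day 6. The day 6 libraries were all higher, most of all replicates 1 and 2 (log2 fold change 1.02 ± 0.13 SE, adjusted p = 2.28e-06). Fzd4, which also binds Norrin in retinal vessels, stood at 1.92, 3.01, 2.31, 1.81 and 1.48 CPM before differentiation and 4.89, 3.89, 7.55, 5.12 and 7.09 CPM on day 6. All day 6 libraries were higher, and here replicates 1 and 2 were the lowest of day 6 (log2 fold change 1.42 ± 0.22 SE, adjusted p = 1.22e-05). Fzd8, a close relative of Fzd5, stood at 3.72, 2.96, 2.22, 2.66 and 4.26 CPM before differentiation and 4.54, 4.64, 6.15, 6.77 and 6 CPM on day 6. The gap between the conditions was narrow, from 4.26 to 4.54 CPM (log2 fold change 0.83 ± 0.19 SE, adjusted p = 6.55e-04).

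Fzd9 stood at 0.712, 1.94, 0.708, 1.15 and 1.36 CPM before differentiation and 2.17, 3.2, 1.46, 2.93 and 1.16 CPM on day 6. The libraries overlapped, and its call (log2 fold change 0.91 ± 0.33 SE, adjusted p = 0.0189) was lost when replicate 1 or 3 before differentiation or replicate 2 or 4 of day 6 was left out (adjusted p = 0.0545, 0.0573, 0.0559 and 0.0507). Without replicates 1 and 2 of day 6 it was lost too (adjusted p = 0.0885).

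Fzd6 and Fzd3 are known from planar polarity, in which cells of a sheet align. Fzd6 stood at 31.1, 31.6, 29.3, 32.5 and 34.6 CPM before differentiation and 25.4, 25.6, 24.2, 32 and 28.4 CPM on day 6. Replicate 4 of day 6 lay within the earlier range, and the fall was small (log2 fold change -0.23 ± 0.08 SE, adjusted p = 0.0145). It did not pass without replicates 1 and 2 of day 6 (log2 fold change -0.16, adjusted p = 0.088). Fzd3 stood at 13.9, 12.5, 15.8, 12.9 and 10.6 CPM before differentiation and 12.9, 12.1, 13, 11.9 and 11.5 CPM on day 6. All day 6 libraries lay inside the earlier range (log2 fold change -0.10 ± 0.10 SE, adjusted p = 0.392).

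Summed over the Frizzled genes, FPKM was 62.9 ± 1.8 before differentiation and 114 ± 3.86 on day 6. Fzd7 held 31.9% ± 1.24 of the sum before differentiation and 26.3% ± 0.918 on day 6, Fzd2 25.9% ± 0.789 and 25.5% ± 1.84, and Fzd1 17.8% ± 0.985 and 32.3% ± 2.42. Fzd1 was thus behind both before differentiation and ahead of both on day 6. Fzd6 held 12.5% ± 0.719 and 5.8% ± 0.654. Fzd1, Fzd2 and Fzd7 held the largest shares in both conditions.

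The co-receptors of the beta-catenin branch parted. Lrp6 stood at 117, 108, 115, 105 and 99.8 CPM before differentiation and 161, 165, 167, 173 and 169.7 CPM on day 6. It rose without overlap (log2 fold change 0.62 ± 0.05 SE, adjusted p = 2.63e-09). Lrp5, known for its part in bone mass, stood at 93.1, 94.9, 106, 108 and 108 CPM before differentiation and 93.3, 116, 95, 109 and 112 CPM on day 6. Its libraries overlapped (log2 fold change 0.04 ± 0.07 SE, adjusted p = 0.552).

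Ror1 and Ror2, receptor tyrosine kinases that bind Wnt5a, were low and higher on day 6. Ror1 stood at 0.602, 0.161, 0.378, 0.906 and 1.89 CPM before differentiation and 2.87, 4, 1.4, 1.89 and 1.61 CPM on day 6. Replicate 5 before differentiation was as high as several day 6 libraries, and replicates 1 and 2 of day 6 were highest (log2 fold change 1.62 ± 0.48 SE, adjusted p = 0.00668). Without replicate 5 before differentiation the log2 fold change was 2.22, without replicates 1 and 2 of day 6 it was 1.10 (adjusted p = 0.029), and without replicates 2 and 3 before differentiation it was 1.06 (adjusted p = 0.0386). Ror2 stood at 1.37, 1.24, 0.944, 1.27 and 1.48 CPM before differentiation and 1.88, 2.72, 0.974, 2.5 and 2 CPM on day 6. Replicate 3 of day 6 lay in the earlier range. Its call (log2 fold change 0.68 ± 0.27 SE, adjusted p = 0.0294) was lost without any 1 of replicates 2 and 3 before differentiation and 2 and 4 of day 6 (adjusted p = 0.053, 0.079, 0.0834 and 0.0722). It was also lost without replicates 1 and 2 of day 6 (adjusted p = 0.126) and without replicates 2 and 3 before differentiation (adjusted p = 0.147).

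**Figure D3:**
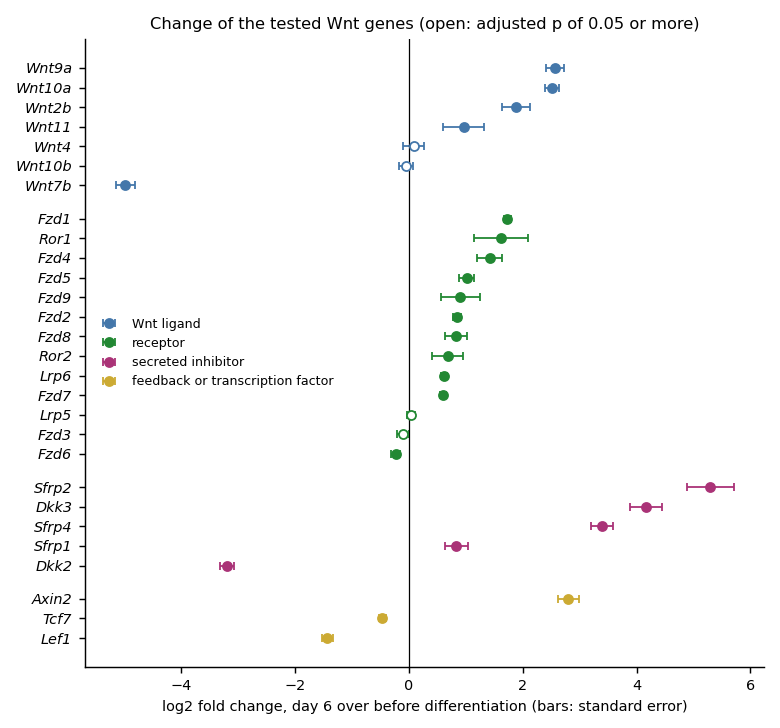
Log2 fold change of day 6 over before differentiation with its standard error for the 28 tested genes, coloured by role and open where the adjusted p was 0.05 or more. Wnt7b at -4.97 and Dkk2 at -3.19 lie farthest to the left, and Sfrp2 at 5.30 and Dkk3 at 4.16 farthest to the right.

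Among the secreted inhibitors, Dkk2 was the leading gene before differentiation and fell, and 4 others rose. All 5 tested were called, with Sfrp1, Sfrp2, Sfrp4 and Dkk3 higher and Dkk2 lower on day 6. Sfrp2 and Dkk3, with 19 and 37 counts before differentiation, passed the filter through day 6 alone. Their calls could thus hardly have gone the other way. Of all genes tested 79.8% were called, 40.1% higher and 39.7% lower. Dkk2, a Dkk protein that binds Lrp5 and Lrp6, lies on chromosome 3 from 132085292 to 132180293 on the plus strand. Its level was 25.9, 27.2, 21.1, 24.1 and 25.3 CPM before differentiation and 2.77, 3.25, 3.04, 2.07 and 2.26 CPM on day 6. The conditions did not overlap, and it was 9.14-fold lower (log2 fold change -3.19 ± 0.12 SE, adjusted p = 6.29e-14).

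Sfrp proteins hold a Frizzled-like domain that binds Wnt outside the cell. Sfrp2, on chromosome 3 from 83766321 to 83774316 on the plus strand, stood at 0.329, 0, 0.33, 0.363 and 0 CPM before differentiation, where replicates 2 and 5 had no count, and 9.78, 11.2, 6.94, 8.29 and 5.67 CPM on day 6. It was nearly absent before differentiation and present in every day 6 library, with 19 and 746 counts (log2 fold change 5.30 ± 0.41 SE, adjusted p = 1.06e-08). Sfrp4 stood at 1.2, 0.753, 1.18, 1.03 and 1.01 CPM before differentiation and 9.09, 10.5, 13.6, 8.05 and 13.8 CPM on day 6. No library overlapped, and it was 10.5-fold higher (log2 fold change 3.40 ± 0.20 SE, adjusted p = 2.25e-11). Sfrp1 stood at 2.68, 1.45, 2.12, 1.87 and 1.72 CPM before differentiation and 3.61, 2.83, 4.32, 3.05 and 3.87 CPM on day 6. It rose least of the Sfrp genes tested, with a narrow gap between conditions (log2 fold change 0.84 ± 0.21 SE, adjusted p = 0.0012).

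Dkk3, a divergent Dkk protein that does not act through Lrp6 as its relatives do, stood at 0.164, 0.538, 0.661, 0.242 and 0.355 CPM before differentiation and 5.19, 5.87, 8.58, 8.11 and 8.96 CPM on day 6. All day 6 libraries were higher, with replicates 1 and 2 the lowest of these (log2 fold change 4.16 ± 0.28 SE, adjusted p = 1.84e-10). Without replicates 2 and 3 before differentiation, the highest of that condition, the log2 fold change was 4.81, and without replicates 3, 4 and 5 of day 6 it was 3.80. Dkk2 and Dkk3 thus moved in opposite directions.

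The promoters of Dkk2 and Sfrp2, which fell and rose most among the inhibitors tested, are shown with that of Axin2, the beta-catenin feedback gene described below. These are the 250 bases before each start in RefSeq on GRCm38.p6, at chr3:132085042-132085291, chr3:83766071-83766320 and chr11:108920099-108920348, all on the plus strand. No capitals appear because none held either E-box or a TCF/LEF sequence, CTTTG followed by 2 letters that are each A or T, on either strand. Regions farther upstream or inside the genes were not searched, so sites there are not covered.
Dkk2: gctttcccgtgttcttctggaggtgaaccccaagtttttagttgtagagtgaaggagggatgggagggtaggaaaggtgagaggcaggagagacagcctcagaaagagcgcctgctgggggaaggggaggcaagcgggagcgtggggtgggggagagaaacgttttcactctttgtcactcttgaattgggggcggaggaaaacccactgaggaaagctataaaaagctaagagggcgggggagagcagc
Sfrp2: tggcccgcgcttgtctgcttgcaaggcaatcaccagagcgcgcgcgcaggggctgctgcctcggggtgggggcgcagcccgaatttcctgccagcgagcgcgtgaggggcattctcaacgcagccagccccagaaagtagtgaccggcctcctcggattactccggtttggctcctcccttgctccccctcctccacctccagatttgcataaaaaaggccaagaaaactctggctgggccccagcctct
Axin2: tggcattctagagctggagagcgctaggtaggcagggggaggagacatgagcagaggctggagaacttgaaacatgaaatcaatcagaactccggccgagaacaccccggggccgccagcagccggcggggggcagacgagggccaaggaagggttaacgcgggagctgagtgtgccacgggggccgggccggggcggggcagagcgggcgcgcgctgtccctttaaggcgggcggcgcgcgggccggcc
A TCF/LEF sequence was found in 14.8% of all promoters of this length and in 3 of the 34 Wnt genes with an entry, Wnt11, Fzd7 and Dkk1. No promoter of these 34 held more than 1 of the 3 kinds of motif. The median GC content was 69.4% in the 34 and 52.4% in all promoters, so the base composition of the sets differs.

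The other inhibitors were under the filter. Wif1, which binds Wnt proteins directly, was at 0 in all 5 earlier libraries, and replicates 1 to 5 of day 6 held 17, 14, 8, 5 and 3 counts. Set against a floor of 3 counts over the earlier condition, with the day 6 counts taken as they stand, it was 16.4-fold higher. Frzb, a relative of the Sfrp genes, was also at 0 in the earlier libraries. It had 1, 3, 6, 4 and 1 counts on day 6, 5.24-fold higher than the same floor. Both were present in all 5 day 6 libraries, and with no filter edgeR's test gave adjusted p = 2.77e-06 and 0.00291. Dkk1, Dkk4 and Sfrp5 had at most 2 counts over all libraries.

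Per length, the summed inhibitor FPKM was 8.01 ± 0.611 before differentiation and 14.4 ± 1.41 on day 6. Dkk2 held 84% ± 3.86 of it before differentiation and 5% ± 0.726 on day 6. On day 6 the sum was spread over Sfrp4 at 42.9% ± 7.08, Sfrp2 at 29.2% ± 8.37 and Dkk3 at 15.2% ± 3.57, which had held 7.45% ± 1.49, 1.3% ± 1.2 and 1.5% ± 0.852.

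R-spondins bind Lgr receptors and keep Frizzled receptors on the cell surface, and all 4 were under the filter. Rspo2, needed for limb formation in the mouse embryo, had 0, 2, 0, 0 and 0 counts before differentiation and 5, 2, 10, 11 and 10 on day 6. Replicate 2 of the 2 conditions had the same count, so the libraries overlapped by that 1, and the ratio was 19.9 (95% counting interval 5.14 to 170.3). With no filter edgeR's test gave adjusted p = 2.22e-04. Rspo1 and Rspo3 had 4 and 3 counts before differentiation and 17 and 11 on day 6, and did not pass that test (adjusted p = 0.0883 and 0.177).

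The 3 genes inside the cell moved in different directions. Axin2, a target of beta-catenin whose protein helps to degrade beta-catenin, lies on chromosome 11 from 108920349 to 108950783 on the plus strand. Its level was 1.15, 1.18, 0.944, 1.63 and 0.71 CPM before differentiation and 8.45, 7.84, 8.16, 7.56 and 7.16 CPM on day 6. The day 6 libraries were close together and all higher, 6.97-fold in the fit (log2 fold change 2.80 ± 0.18 SE, adjusted p = 1.17e-10). The antisense gene Gm11670 that overlaps it had 0 and then 5 counts, beside 102 and 687 for Axin2.

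Lef1, a transcription factor that carries beta-catenin to DNA, stood at 19.2, 19.3, 16.8, 19.6 and 20.7 CPM before differentiation and 6.97, 5.81, 7.49, 7.56 and 7.67 CPM on day 6. It fell without overlap (log2 fold change -1.43 ± 0.10 SE, adjusted p = 3.07e-10). Tcf7, its relative, stood at 41.5, 39.7, 42, 41.1 and 38.4 CPM before differentiation and 27.6, 28.3, 31.7, 30.5 and 29.4 CPM on day 6. It also fell without overlap, by less (log2 fold change -0.46 ± 0.06 SE, adjusted p = 2.10e-06). Tcf7 overlaps A630014C17Rik and Gm26551, which had 25 and 41 counts before differentiation and 38 and 51 on day 6, beside 3713 and 2566 for Tcf7.

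Genes that release Wnt or act at the surface were read from a list of 25 names. Gpr124 and Adgra2 among them name the same gene, and Tiki1 was not found under that name. This left 23 genes, of which 14 were tested. Of the 14, 10 were higher and 4 lower, with a median log2 fold change of 0.40, where 40.1% of all genes tested were higher and 39.7% lower. Porcn, the enzyme that attaches the lipid to Wnt proteins, stood at 5.26, 4.14, 4.96, 5.26 and 5.27 CPM before differentiation and 167, 167, 176, 171 and 184 CPM on day 6. It was by far the largest rise of the list (log2 fold change 5.12 ± 0.07 SE, adjusted p = 6.68e-20), while Wls, which carries the lipid-bearing Wnt to the surface, went from 323 ± 10.1 to 478 ± 52.9 CPM (log2 fold change 0.57 ± 0.06 SE, adjusted p = 2.58e-07). Musk, the receptor of the nerve-muscle synapse with a Frizzled-like domain, went from 24 ± 2.25 to 127 ± 6.32 CPM (log2 fold change 2.40 ± 0.07 SE, adjusted p = 5.05e-16).

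Lgr6, a receptor for R-spondins, stood at 93.7, 94.5, 92.7, 100 and 92.4 CPM before differentiation and 18.6, 23.4, 5.6, 4.02 and 8.83 CPM on day 6. Every day 6 library was below every earlier one, and replicates 1 and 2 of day 6 were above the others of day 6 (log2 fold change -2.94 ± 0.41 SE, adjusted p = 1.48e-04). Without these replicates the log2 fold change was -3.94, and without replicates 3, 4 and 5 it was -2.13. Lypd6, which strengthens Lrp6 signals in fish, fell (log2 fold change -1.52 ± 0.14 SE, adjusted p = 1.45e-08). Ptk7 and Apcdd1 were the other 2 that fell, and Trabd2b, Reck, Kremen1, Gpr124, Lgr4, Ryk and Znrf3 the others that rose.

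The relay from Dvl proteins to beta-catenin and its nuclear partners was read from 36 genes, all in the table. Of these, 35 were tested, 15 were higher, 13 lower and 7 not called, with a median log2 fold change of -0.05. The 80% called is near the 79.8% of all genes tested. Ctnnb1, which encodes beta-catenin, went from 615 ± 21.4 to 556 ± 11.7 CPM (log2 fold change -0.15 ± 0.04 SE, adjusted p = 0.00475). This small fall did not pass without replicates 3, 4 and 5 of day 6 (log2 fold change -0.10, adjusted p = 0.0591). Axin1 and Csnk1g1, a scaffold and a kinase of the pathway, fell the most, by 0.55 and 0.60 on the log2 scale (adjusted p = 1.39e-07 and 4.08e-07). None of the 13 fell by more than 1 log2. Nkd2, a Dvl-binding inhibitor, went from 0.195 ± 0.0546 to 14.3 ± 2.7 CPM (log2 fold change 6.13 ± 0.23 SE, adjusted p = 2.99e-14), and Pygo1, a nuclear partner of beta-catenin, from 1.1 ± 0.406 to 5.09 ± 0.55 CPM (log2 fold change 2.19 ± 0.22 SE, adjusted p = 5.65e-08). Axin2 and Nkd2 rose while Axin1 fell.

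In the list of polarity and calcium genes, 30 of 31 were tested, 13 were higher, 12 lower and 5 not called, with a median log2 fold change of -0.05. The 83.3% called also stands near the 79.8% of all genes. Camk2a and Camk2b, subunits of a calcium-dependent kinase that muscle fibres also use, went from 1.52 ± 0.662 to 135 ± 11.6 CPM and from 0.253 ± 0.0847 to 10.4 ± 4.09 CPM (log2 fold change 6.45 and 5.34, adjusted p = 1.13e-12 and 1.24e-09). Nfatc2, a calcium-driven transcription factor, and Celsr1, a polarity cadherin, fell the most (-2.76 and -1.42, adjusted p = 4.33e-07 and 0.00102). Rhoa, the most abundant per length, went from 500.3 ± 15 to 393 ± 24.6 CPM (log2 fold change -0.35 ± 0.05 SE, adjusted p = 4.08e-06).

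Known targets of beta-catenin were read from a list of 23 names. Ccn4 and Wisp1 among them name the same gene, which left 22 genes, all in the table. Of these, 15 were tested, with 5 higher, 8 lower, 2 not called and a median log2 fold change of -0.35. Over all genes, 40.1% were higher and 39.7% lower. Ccnd1, a cyclin of the G1 phase, went from 411 ± 6.7 to 28.8 ± 5.79 CPM (log2 fold change -3.84 ± 0.12 SE, adjusted p = 7.49e-12). Fosl1, a subunit of the AP-1 factor, went from 152 ± 8.26 to 3.32 ± 1 CPM (log2 fold change -5.49 ± 0.12 SE, adjusted p = 3.63e-15), and Cd44, the surface receptor for hyaluronan, from 964 ± 13.2 to 224 ± 10.7 CPM (log2 fold change -2.11 ± 0.05 SE, adjusted p = 2.91e-17). These 3 fell while Axin2 rose. Znrf3, which rose, and Apcdd1, which fell, count in this list and among the surface regulators.

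Fst, a secreted binder of myostatin and activin, stood at 1.26, 1.51, 2.5, 1.69 and 2.43 CPM before differentiation and 243, 251, 61.4, 58.9 and 75.3 CPM on day 6. Every day 6 library was above every earlier one, with replicates 1 and 2 of day 6 far above the others of day 6 (log2 fold change 6.19 ± 0.71 SE, adjusted p = 3.74e-05). Without these replicates the log2 fold change was 5.12, and without replicates 3, 4 and 5 it was 7.07. Tnfrsf19, a receptor of the tumour necrosis factor family, had 5 counts before differentiation and 847 on day 6. Its level on day 6 was 14.2, 12.9, 6.7, 6.89 and 6.13 CPM, and again replicates 1 and 2 were highest (log2 fold change 7.26 ± 0.49 SE, adjusted p = 2.38e-09).

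**Figure D4:**
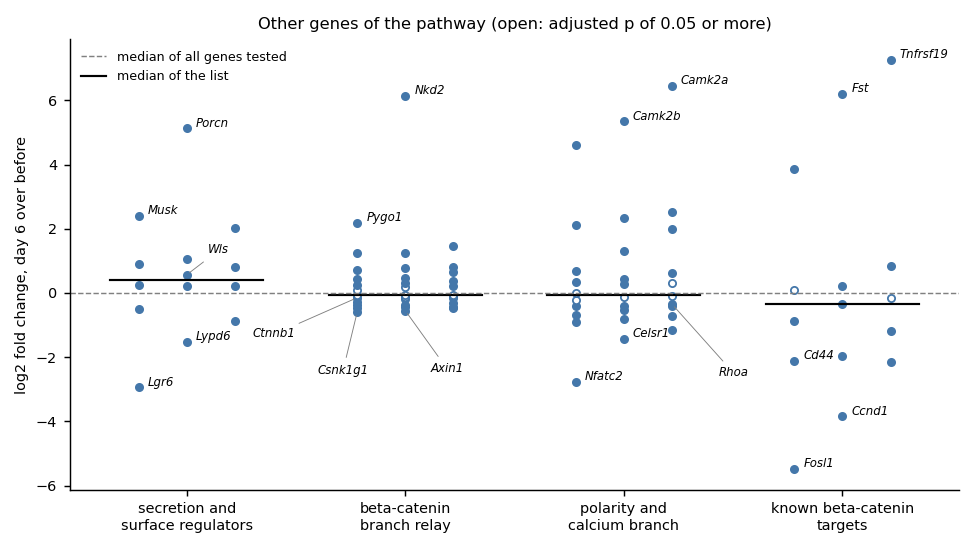
Log2 fold change of each tested gene in the 4 other lists of the pathway, open where the adjusted p was 0.05 or more, with a bar at the median of each list and a dashed line at the median of all genes tested. Most relay genes lie near 0, with 5 called higher by more than 1 log2 and Nkd2 highest at 6.13. The targets spread from -5.49 for Fosl1 to 7.26 for Tnfrsf19.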

How the data were processed

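RNA of C2C12 cells extracted with TRIzol was sequenced as 5 libraries before differentiation and 5 on day 6, and the labels gave the condition and number of each. The authors deposited 1 table of raw counts and FPKM per gene and library. Raw counts were obtained by the authors from reads trimmed with Trimmomatic, aligned by STAR 2.5 against mm10 and, where unique, assigned to genes by HTSeq 0.6.1, and were not scaled. The paper names a directional library kit, and the labels name the kit differently. The strand setting of the counting is not given in the sources used here. The deposited FPKM equal the authors' counts per kilobase of gene length and 1000000 counts of the library. They were used only for sums and shares per length and to pick the most abundant gene per length of each other list. Dates stood in place of 27 gene names in the table, which touched none of the genes described.

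Fold changes and p-values were computed from the counts with edgeR 4.0.16 in R 4.3.3 (filterByExpr by group, TMM factors of 0.980 to 1.02, robust quasi-likelihood fit, condition alone, Benjamini-Hochberg over 13085 genes, threshold 0.05). A gene could pass the filter through 1 condition alone, and its call then could hardly favour the other condition. Each standard error (SE) was derived from the log2 fold change and its F statistic. The script was tested on simulated counts. Counting intervals are exact at 95% and cover counting error only. The floor is 3 counts over a condition, and a ratio to it leaves out the counting error of the other condition. Every gene of the family that was tested and reached 1 CPM in its higher condition is given in all libraries. From each other list the 2 largest rises and falls and the most abundant gene per length are named, and other names were added after their values were seen. The genes and lists were chosen with earlier results of these data known. Alternatives were DESeq2 1.42.0, other scalings and filters, thinning, a replicate block, a limit of 1 log2 and leaving out libraries. Sequences came from RefSeq promoters (GRCm38.p6), where 34 of the 50 genes had an entry.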

Additional observations from a re-analysis of the deposited data

Results flagged for a closer look

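The highest or lowest library of a condition was set against the other 4 by Dixon's criterion in 96 groups of 5 libraries, of which 5 passed, where chance gives about 1 in 20. Wnt7b was highest in replicate 5 before differentiation, at 21.7 CPM against 17 to 18 CPM in the others. Wnt11 was highest in replicate 2 of day 6, at 3.47 CPM against 1.03 to 1.58 CPM. Fzd2 was highest in the same library, at 127 CPM against 100.1 to 104 CPM. Porcn was lowest in replicate 2 before differentiation, at 4.14 CPM against 4.96 to 5.27 CPM, and Lgr6 was highest in replicate 4 before differentiation, at 100 CPM against 92.4 to 94.5 CPM. Of these, the call of Wnt11 was lost without the library named.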

How the results depend on the processing

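With a limit of 1 log2, 11 and 3 Wnt genes were higher and lower in place of 19 and 5, 4 and 2 surface regulators in place of 10 and 4, 5 and 0 relay genes in place of 15 and 13, 8 and 3 polarity and calcium genes in place of 13 and 12, and 3 and 6 targets in place of 5 and 8. Where 5 or more libraries had to reach 5 CPM, 11 Wnt genes were higher, since fewer were tested. DESeq2 and edgeR with no filter each put 24 Wnt genes higher and 5 lower, the added 5 being Rspo2, Wnt6, Wnt5b, Wif1 and Frzb in both. With the replicate block 19 and 5 Wnt genes were called, as without it, and the lists kept their counts of 10 and 4, 15 and 13, 13 and 12, and 5 and 8. Libraries with the same number did not deviate together, with correlations of -0.05 to 0.01. With each library left out in turn, 16 to 20 Wnt genes were higher and 5 lower, 10 to 11 and 4 surface regulators, 14 to 16 and 12 to 14 relay genes, 13 and 12 to 14 polarity and calcium genes, and 5 to 6 and 8 targets. In alternatives chosen after seeing the data, 17 and 4 Wnt genes were called without replicates 1 and 2 of day 6, 21 and 5 without replicates 3, 4 and 5, and 21 and 5 without replicates 2 and 3 before differentiation. Over all named genes, 974 values under an alternative kept direction and call, 16 lost the call, those of Wnt11, Fzd6, Fzd9, Ror2 and Ctnnb1, and 6 changed sign, those of Wnt10b and Wnt4, which were not called. No called change reversed. No scaling moved the median of all genes by more than 0.1 log2. Of the 50 Wnt genes, those under the filter had at most 58 counts in a condition and give only coarse ratios.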
